A study of Mus musculus with 12 samples.

Results

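Long noncoding RNAs are transcripts that are made and often processed like messenger RNAs but are not annotated as coding for a protein. In hepatocytes and other liver cells some of them build nuclear bodies, some carry small RNAs in their introns, and some are read from the opposite strand of a liver transcription factor gene or from imprinted loci. Many are known to be retained in the nucleus or turned over quickly, so that the level of one is usually far below that of a liver messenger RNA. The abundant long noncoding RNAs of mouse liver described here are the rows of the deposited count table that are typed lncRNA, lie on chromosomes 1 to 19, and average at least 5 CPM over all 12 libraries. CPM is the count scaled to the column total of its library. Members were thus chosen by their mean level in these libraries. Rows in the stretch of chromosome 7 around Cyp2e1 and the row Gm10503 were left out. There were 138 members of 56748 rows in the table, out of 10472 lncRNA rows that met the other conditions, 6186 of which had no count in any library.

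The libraries were made from poly(A)-selected RNA of bulk liver from 16-week-old mice kept in shared cages on normal chow. The 4 groups were male knockout and female knockout mice of the line 129/Sv-Cyp2e1tm1Gonz/J, which carries a targeted allele of the cytochrome P450 gene Cyp2e1, and male wild type and female wild type mice of the inbred line 129S1/SvImJ. Each group held 3 biological replicates. Because knockout (KO) and wild type (WT) mice belong to different lines, the effect of the allele and the effect of the line cannot be told apart in any knockout comparison.

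Total counts ran from 15167730 to 25082532 per library, and members took 0.187% to 0.299% of them. Cyp2e1 stood at 244 to 401 CPM in the 6 KO libraries and at 5986 to 11524 CPM in the 6 WT libraries, and Xist and Ddx3y counts matched the labelled sex of all 12. Hepatocyte markers summed to 88400 to 101000 CPM in male KO, 85200 to 100000 in male WT, 123000 to 125000 in female KO and 103000 to 135000 in female WT livers. Long and short genes were weighted unequally between libraries: the slope of log2 level on gene length ran from 0.08 to 0.29 per doubling of length in female KO livers, against -0.23 to -0.14 in female WT livers. In males the slope ran from -0.17 to 0.17 in KO livers, against -0.16 to 0.11 in WT livers. No pair of replicates agreed within counting noise. The chi-square per degree of freedom was 16.2 to 80.8 for most pairs, 106 and 147 between male KO replicate 2 and its partners, and 150 between male WT replicates 2 and 3.

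Within the spans of 4 members (Mir22hg, Dleu2, Meg3 and Rian) lie 9 miRNA genes on the same strand, and 8 of them matched a RefSeq entry. The following mature sequences are shown because each names the small RNA its host is known for. They are written 5′ to 3′ with the seed, bases 2 to 8, in capitals, and poly(A) selection does not measure the mature forms.
mmu-miR-22-3p: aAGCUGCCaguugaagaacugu
mmu-miR-15a-5p: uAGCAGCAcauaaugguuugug
mmu-miR-16-5p: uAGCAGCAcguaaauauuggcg
mmu-miR-770-5p: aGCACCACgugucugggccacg
mmu-miR-370-3p: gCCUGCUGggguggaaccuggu
In RefSeq's GRCm38.p6 these lie at chr11:75463772-75463793 (plus strand, in Mir22hg), chr14:61632075-61632096 and chr14:61631936-61631957 (minus strand, in Dleu2), chr12:109563710-109563731 (plus strand, in Meg3) and chr12:109618305-109618326 (plus strand, in Rian). The miR-15a-5p and miR-16-5p arms, both in Dleu2, shared the seed AGCAGCA, and none of the other arms read from these 4 hosts shared a seed.

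In all, 9 members enclose snoRNA genes, and Rian is on both lists. Many snoRNAs, though not all, guide the chemical modification of ribosomal RNA. Promoter windows of 300 bases (250 before to 50 after the annotated start) were matched in RefSeq for 83 of the 138 members. The windows of Snhg8 (chr3:123508287-123508586, minus strand, GRCm38.p6) and of 2410006H16Rik (chr11:62602627-62602926, plus strand), both hosts that fell in female KO livers, are given with TATAAA or CTTTC in capitals.
Snhg8: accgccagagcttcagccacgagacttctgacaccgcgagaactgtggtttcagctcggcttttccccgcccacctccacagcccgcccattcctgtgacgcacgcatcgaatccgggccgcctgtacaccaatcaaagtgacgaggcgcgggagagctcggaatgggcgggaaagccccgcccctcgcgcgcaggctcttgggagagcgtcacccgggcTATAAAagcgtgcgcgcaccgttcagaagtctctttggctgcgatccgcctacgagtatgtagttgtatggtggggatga
2410006H16Rik: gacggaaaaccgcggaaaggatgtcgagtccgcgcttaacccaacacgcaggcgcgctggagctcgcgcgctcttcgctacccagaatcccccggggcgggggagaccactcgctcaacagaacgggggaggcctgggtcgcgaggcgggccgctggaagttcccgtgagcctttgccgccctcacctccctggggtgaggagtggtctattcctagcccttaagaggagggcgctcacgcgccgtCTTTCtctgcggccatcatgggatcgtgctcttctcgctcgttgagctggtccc
The capitals begin 30 bases before the start in Snhg8 and 4 bases before it in 2410006H16Rik. TATAAA stood on the sense strand in the 50 bases before the start in 3 of 9 windows of the snoRNA hosts (33.3%), from Snhg8 and 1110038B12Rik, in 2.9% of the windows of all members and in 2.63% of 32851 windows of all genes. On either strand it stood in 44.4%, 3.62% and 3.5% of them. CTTTC or CTTTT, a short run of the kind found at the start of transcripts of the translation machinery, stood within 20 bases of the start on the sense strand in 1 of 9 host windows (11.1%), in 15.9% of member windows and in 9.42% of all windows, and on either strand in 11.1%, 24.6% and 17.3%. Only these strings were searched. Other runs of C and T, such as ctcttt at the annotated start of Snhg8, were not counted, so the shares do not show which hosts lack such a run. The motifs do not overlap, the windows of 1 gene can overlap each other, and a match describes letters only.

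The mean level chose the members, so levels are given as a description. The median member averaged 9.94 CPM and the highest, 1810008I18Rik (ENSMUSG00000100094), averaged 148 CPM. The 3 members just inside the threshold were Gm16124 at 5.08 CPM, ENSMUSG00000120954 at 5.13 CPM and Gm16548 at 5.15 CPM, and the 3 rows just outside it were Gm12718 at 4.94 CPM, Gm44096 at 4.84 CPM and ENSMUSG00000120999 at 4.82 CPM. Of the 138, 94 averaged at least 5 CPM in each of the 4 groups, 27 in 3 groups, 14 in 2 groups and 3 in a single group (Gm4673 in female KO, and ENSMUSG00000120149 and Gt(ROSA)26Sor in female WT livers). All 138 passed the filter on low counts. Per kilobase of the length given in the table, the median member stood at 4.30 CPM per kb. Gm10076 was highest at 79.7, followed by Gm6135 at 51.4, AW112010 (known in mouse macrophages to be translated into a small protein) at 44.6, 1810008I18Rik at 37.7 and Gm14097 at 32.6 CPM per kb. The long imprinted transcripts Meg3 and Rian were the lowest, at 0.438 and 0.261 CPM per kb. Neat1 and Malat1, among the most abundant nuclear transcripts of mammalian cells, stood at 4.61 and 7.02 CPM per kb in these libraries.

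Members were short and mostly unnamed: lengths ran from 266 to 31981 bases with a median of 2797, 52 had a Gm number, 39 a Rik name and 22 an Ensembl identifier alone. They lay on all 19 autosomes, from 1 member on chromosome 5 to 13 on chromosome 7. The spans of 56 overlapped a protein-coding gene, 51 of them on the opposite strand, and 28 began within 1000 bases of a protein-coding start that reads the other way. The strand setting of the counts is unknown, so reads of a member and of a gene that overlaps it cannot be told apart.

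**Figure D1:**
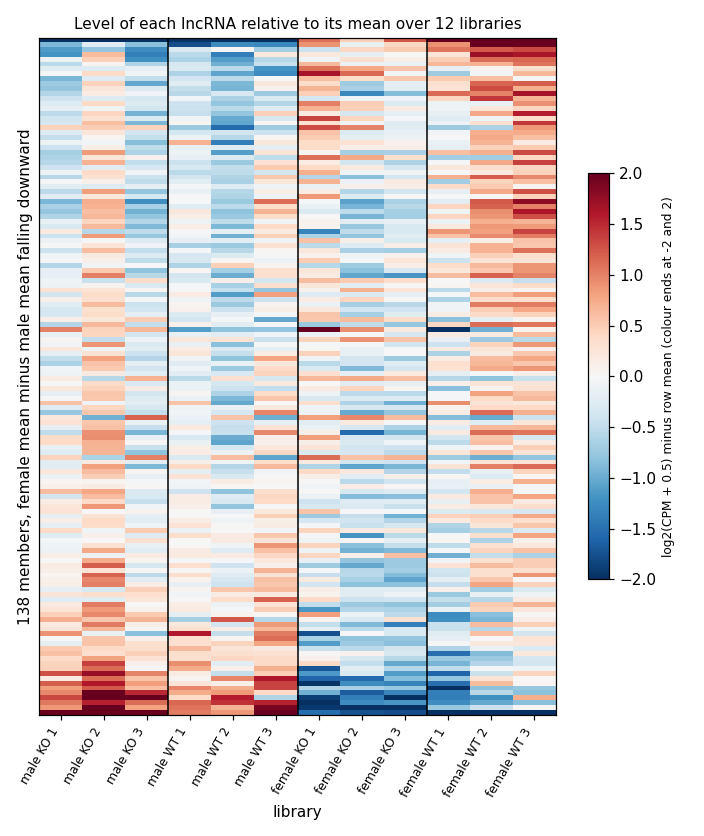
Heat map of log2(CPM + 0.5) of each of the 138 members minus its mean over the 12 libraries (colour, ending at -2 and 2), with libraries in columns by group and members in rows ordered by female minus male mean. The lowest and highest rows hold the members that separated by sex, and between them single libraries such as male KO replicate 2 and female WT replicate 3 ran high over many rows.

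The female comparison asked which of these transcripts differed between Cyp2e1 knockout and wild type livers. Far more members were lower than higher: 40 fell and 11 rose in female KO livers, 51 of 138 in all (37.0%), while 36.5% of the 14003 genes tested were called, 17.7% higher and 18.8% lower (edgeR, adjusted p under 0.05). The median member had a log2 fold change of -0.54, against 0.05 over all genes. Neat1 and Norad were among those that rose, and snoRNA hosts, Rian, Hnf4aos and Gm6135 among those that fell. All 3 libraries of one genotype lay above all 3 of the other for 12 members that were higher and 50 that were lower in KO, 44.9% of members against 54.8% of all genes (27.6% higher and 27.1% lower). The share called is close to that of all genes and is no result about lncRNAs, and the balance between directions moved with the length correction. With the trend of relative level on gene length removed from each library, 17 members were called higher and 19 lower, 28 of them shared with the 51. With the library slope as a covariate none was called. Over all genes 2227 were called higher and 2033 lower with the trend removed, and 10 were called with the slope. With the slope the fold change of 21 of the 51 changed sign, and with the trend removed that of 2.

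The lean toward lower values moved with gene length. Among all genes tested the female log2 fold change correlated with log length (Pearson 0.42 across genes, which are not independent replicates), with a median of -0.28 in the shorter part and 0.36 in the longer part. Among members it was 0.36, with medians of -0.72 and -0.37. The part of length, or of what sets the slope, in these changes was not tested and cannot be told apart from genotype, because the slopes of the female groups do not overlap. Single libraries also carried the count of members: it was 1 without female KO replicate 2, 1 without female WT replicate 2, 30 without female KO replicate 3 and 29 without female WT replicate 3. Over all 14003 genes the count moved as well, from 5116 to 4, 5, 2935 and 2975 in the same order. Without either replicate 2, the only member still called was Gm6135, so the female call of each other member given here was lost there.

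**Figure D2:**
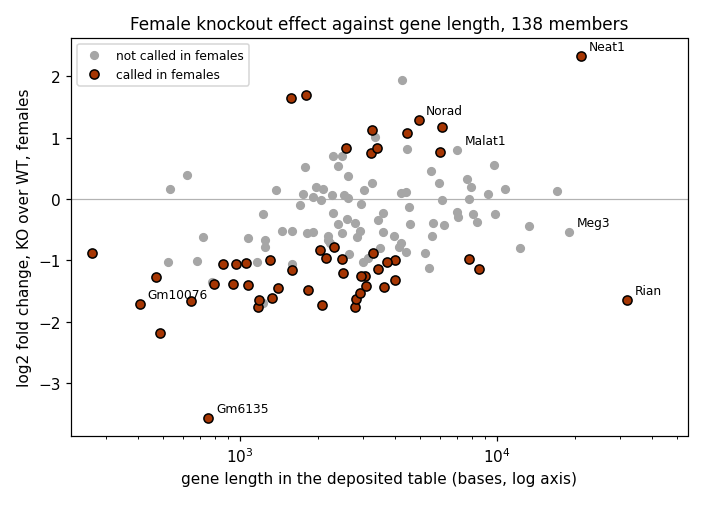
Log2 fold change of KO over WT in females (vertical axis) against gene length in bases (log axis) for the 138 members, those called shown in dark orange. Neat1, at 2.33 and 21163 bases, and Gm6135, at -3.56 and 751 bases, are the ends of the vertical range, and Rian, the longest member at 31981 bases, lies at -1.65.

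Of the nuclear body RNAs, Neat1 (ENSMUSG00000092274, chromosome 19, 5874736 to 5895898, mm39) is the scaffold of paraspeckles. Its counts are per gene from poly(A)-selected RNA and do not tell its transcripts apart. The level of Neat1 was 396, 129 and 77.9 CPM in female KO livers, against 14.2, 34.5 and 71.1 CPM in female WT livers. Male KO livers had 137, 92.6 and 108 CPM, against 31.5, 38.6 and 39.5 CPM in male WT livers. Every KO library lay above every WT library of its sex, although female KO replicate 3 and female WT replicate 3 came close and the female KO libraries spread widely. The log2 fold change was 2.33 ± 0.58 (SE) in females, with an adjusted p of 0.0147. In males it was 1.62 ± 0.57 with an adjusted p of 0.863 (unadjusted 0.0131), and over both sexes 1.98 ± 0.41 with an adjusted p of 0.0263. The female value was 1.37 without female KO replicate 1 and 3.05 without female WT replicate 3. With the length slope as a covariate it was 2.93 with an adjusted p of 0.238, and with the length trend removed 1.71 with an adjusted p of 0.0451.

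Malat1 (ENSMUSG00000092341, chromosome 19, 5845717 to 5852704) lies beside Neat1 and is known for its place in nuclear speckles. It stood at 57.7, 58.7 and 57.4 CPM in male KO livers, against 24.7, 14.1 and 25.4 CPM in male WT livers. In females it was 104, 83.0 and 35.9 CPM in KO, against 24.9, 26.6 and 76.3 CPM in WT. The male groups did not overlap, whereas the female groups did, with female KO replicate 3 among the WT values and female WT replicate 3 among the KO values. The log2 fold change was 1.44 ± 0.44 in males (adjusted p = 0.758) and 0.81 ± 0.43 in females (adjusted p = 0.155), neither past the threshold, and 1.12 ± 0.31 over both sexes (adjusted p = 0.0388). Frmd8, the nearest protein-coding gene to Neat1, had a log2 fold change of 0.40 in females, not called.

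Norad (ENSMUSG00000102869, chromosome 2, 156229980 to 156234921) is a cytoplasmic RNA known to bind Pumilio proteins. It had 74.5, 80.7 and 71.4 CPM in female KO livers, against 31.4, 26.7 and 34.2 CPM in female WT livers. These groups were far apart and each was tight, and the log2 fold change was 1.29 ± 0.29 (adjusted p = 0.0140). In males Norad had 52.8, 31.6 and 76.6 CPM in KO, against 32.2, 59.1 and 37.3 CPM in WT, which overlapped (log2 fold change 0.33 ± 0.29, adjusted p = 1.0). With the length slope as a covariate the female value was 0.28 (adjusted p = 0.788), and with the trend removed 1.17 (adjusted p = 0.0156). Oip5os1, also called Cyrano and known for its site for miR-7, was nearly level across the study, between 42.8 and 53.6 CPM in the 12 libraries, and its highest group mean was 1.16 times its lowest. Chaserr, known in mouse to restrain its neighbour Chd2, averaged 8.45 ± 2.21 CPM in female KO and 10.0 ± 0.795 CPM in female WT livers (SD, n = 3 each, adjusted p = 0.496).

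**Figure D3:**
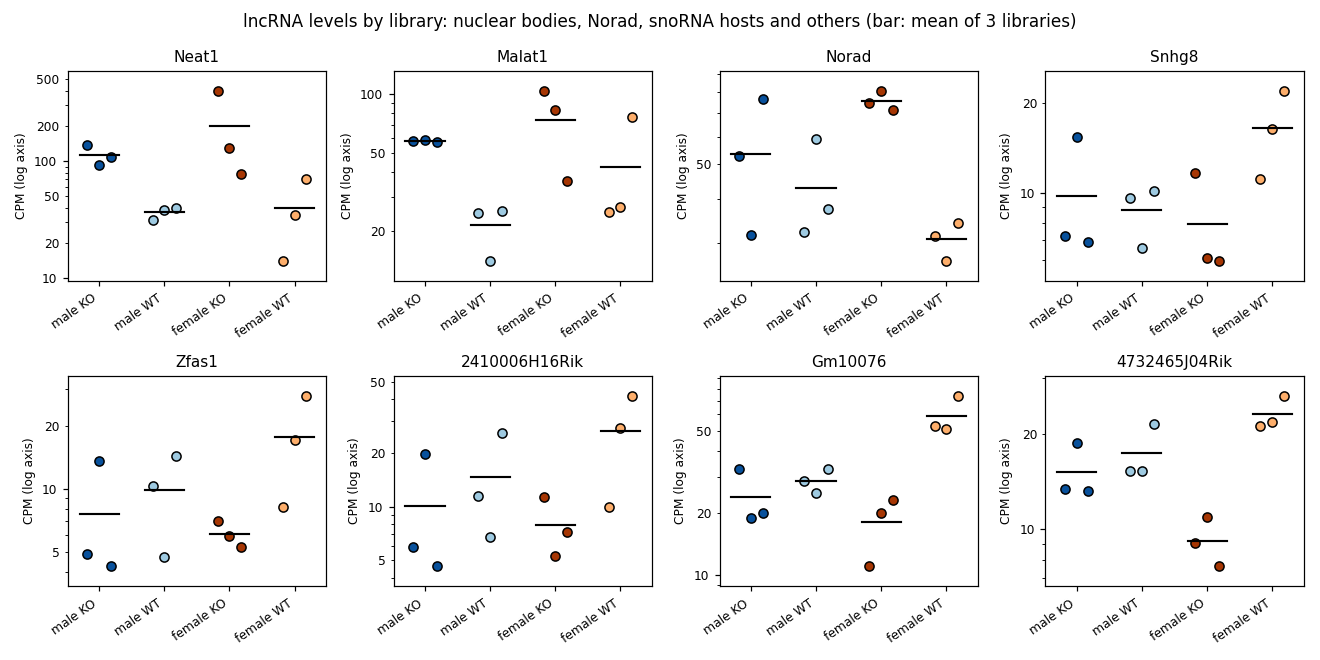
CPM of 8 members in each library (points, log axis) with the mean of 3 libraries (bar), for male KO, male WT, female KO and female WT livers. Neat1 was above WT in every KO library of both sexes, Norad, Gm10076 and 4732465J04Rik did not overlap between the female groups and did between the male groups, and Snhg8, Zfas1 and 2410006H16Rik spread widely within groups.

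The snoRNA hosts carry small RNAs for ribosome modification in their introns, and their spliced transcripts are known targets of nonsense-mediated decay. Of the 8 members outside the imprinted locus that enclose a snoRNA gene, 3 fell in female KO livers (Snhg8, Zfas1 and 2410006H16Rik) and none rose, where 36.5% of all genes were called and 18.8% fell. Zfas1 (ENSMUSG00000074578) had 7.03, 5.93 and 5.28 CPM in female KO livers, against 8.17, 17 and 27.6 CPM in female WT livers. The groups did not overlap, although female WT replicate 1 lay close to the KO libraries, and the log2 fold change was -1.53 ± 0.51 (adjusted p = 0.0329). Snhg8 (ENSMUSG00000104960) had 11.7, 6.11 and 5.98 CPM in female KO livers, against 11.2, 16.4 and 21.9 CPM in female WT livers, which overlapped through replicate 1 of each (log2 fold change -1.05 ± 0.37, adjusted p = 0.0402). For 2410006H16Rik (ENSMUSG00000086841), the host of Snord49b, Snord49a and Snord65, the values were 11.3, 5.28 and 7.23 CPM in KO and 9.92, 27.7 and 41.4 CPM in WT females, a log2 fold change of -1.73 ± 0.63 (adjusted p = 0.0459).

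Snhg1 and Epb41l4aos had female log2 fold changes of -1.03 ± 0.45 and -1.02 ± 0.46 that missed the threshold (adjusted p = 0.0868 and 0.0964). Snhg6 was at -0.71, 1110038B12Rik at -0.33 and Snhg17 at 0.20, none of them called. The summed level of the 8 hosts was 79.3, 50.3 and 48.7 CPM in female KO livers, against 63.6, 113 and 181 CPM in female WT livers. In males it was 46.8, 107 and 38.5 CPM in KO, against 64.8, 40.9 and 92.7 CPM in WT. The median of all 138 members was 9.7, 7.88 and 7.17 CPM in female KO, against 8.32, 11.8 and 13.1 CPM in female WT livers, and 8.47, 12.2 and 7.74 CPM in male KO, against 8.76, 7.07 and 9.95 CPM in male WT livers. The 4 libraries highest in both (female WT replicates 2 and 3, male KO replicate 2 and male WT replicate 3) all had negative length slopes, between -0.23 and -0.16, and the part of that slope in the difference was not tested. With the slope as a covariate the female values turned to 0.39 for Zfas1, 0.28 for Snhg8 and 0.85 for 2410006H16Rik, none called. With the trend removed they were -1.36 (adjusted p = 0.0498), -0.11 (0.724) and -1.34 (0.0783) in the same order. Each of these 3 calls was also lost without female KO replicate 3 and without female WT replicate 3. The calls of Zfas1 and 2410006H16Rik were lost without female KO replicate 1, those of Snhg8 and 2410006H16Rik without male WT replicate 1, and that of 2410006H16Rik without male KO replicate 1. On a separate list of snoRNA host genes, 18 were tested, 7 of them members, with 2410006H16Rik and 1110038B12Rik not on it. Of the 18, 3 fell (Snhg8, Zfas1 and a gene that is no member) and none rose, a share called below the 36.5% of all genes. The median log2 fold change of that list was -0.66, against 0.05 over all genes.

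Mir22hg and Dleu2 were not called in any comparison between knockout and wild type. Mir22hg (ENSMUSG00000085148), the primary transcript of miR-22, had 36.5, 36.8 and 29.0 CPM in female KO livers, against 28.1, 51.6 and 69.3 CPM in female WT livers. Its groups overlapped, with the spread in WT, and the log2 fold change was -0.54 ± 0.35 (adjusted p = 0.239). Dleu2, the host of miR-15a and miR-16-1, averaged 7.93 ± 2.82 CPM in female KO and 10.7 ± 3.11 CPM in female WT livers (adjusted p = 0.245). In males Mir22hg averaged 45.4 ± 21.3 CPM in KO and 30.9 ± 8.88 CPM in WT, and Dleu2 6.86 ± 1.73 CPM in KO and 5.53 ± 0.176 CPM in WT, neither called (SD, n = 3 each). Of 6 miRNA host genes tested in all, none was called in females by edgeR, with a median of -0.36.

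Among RNAs studied in liver metabolism, Hnf4aos (ENSMUSG00000046840), read opposite to the hepatocyte factor gene Hnf4a, had 8.67, 6.30 and 6.24 CPM in female KO livers, against 8.13, 20.1 and 16.0 CPM in female WT livers. Only KO replicate 1 and WT replicate 1 overlapped, and the log2 fold change was -1.05 ± 0.36 (adjusted p = 0.0383). It was 0.25 with the length slope as a covariate (adjusted p = 0.875) and -0.14 with the trend removed (adjusted p = 0.684), and the call was lost without female KO replicate 3, female WT replicate 3 or male WT replicate 1. Gm16551, known in mouse as a hepatic lncRNA tied to lipogenesis, averaged 5.11 ± 1.91 CPM in female KO and 10.5 ± 1.99 CPM in female WT livers (log2 fold change -1.03 ± 0.33, adjusted p = 0.0287), a call lost without female KO replicate 1 or female WT replicate 3. With the slope it was -1.13 (adjusted p = 0.505) and with the trend removed -0.99 (adjusted p = 0.0368). 4931408D14Rik (ENSMUSG00000120174, chromosome 19, 37235740 to 37241516) went the other way: it had 15.1, 12.1 and 17 CPM in female KO livers, against 5.43, 7.78 and 6.95 CPM in female WT livers. Those groups did not overlap and the log2 fold change was 1.13 ± 0.20 (adjusted p = 0.0132), and 1.25 with either correction (adjusted p = 0.167 with the slope and 0.0101 with the trend removed). In males its order was reversed, with 12.1, 10.2 and 12.4 CPM in KO, against 12.7, 12.5 and 14.9 CPM in WT (log2 fold change -0.21 ± 0.20, adjusted p = 1.0). The difference of the effects, male minus female, was -1.34 ± 0.28, with an unadjusted p of 0.000358 that became 0.204 after adjustment. 0610005C13Rik and Gm20319, of the same list, were not called in any comparison, and 0610005C13Rik stayed between 88.4 and 151 CPM over the 12 libraries. Of 11 genes of the list tested, 1 rose and 4 fell in female KO livers, where 17.7% of all genes rose and 18.8% fell.

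The lowest female fold change among members was that of Gm6135 (ENSMUSG00000106069, chromosome 3, 133494950 to 133497318), a transcript 244050 bases from its nearest protein-coding gene, Tet2. It had 13, 8.33 and 14.5 CPM in female KO livers, against 62.9, 188 and 174 CPM in female WT livers. Its group means were 11.9 CPM in female KO, 141 CPM in female WT, 0.337 CPM in male KO and 0.774 CPM in male WT livers, so it met the level rule through female WT livers, and its values against that group are given as a description. The lowest WT library was several times above the highest KO library, and the log2 fold change was -3.56 ± 0.41 (adjusted p = 0.00249). It was called whichever of the 12 libraries was left out (-3.92 to -3.30) and, with the length slope as a covariate, it stood at -1.74 (adjusted p = 0.476), and at -2.51 (adjusted p = 0.00364) with the trend removed. Gm10076 (407 bases, ENSMUSG00000060143) had 11.1, 20 and 23.0 CPM in female KO, against 53.0, 51.0 and 73.4 CPM in female WT livers. It did not overlap (log2 fold change -1.71 ± 0.29, adjusted p = 0.0132) and stood at -1.97 (adjusted p = 0.167) with the slope and at -0.31 (adjusted p = 0.560) when the length trend was removed. 4732465J04Rik (ENSMUSG00000101517), at 9.03, 10.9 and 7.67 CPM in female KO and 21.1, 21.7 and 26.2 CPM in female WT livers, had -1.32 ± 0.22 and the same -1.32 with the trend removed (adjusted p = 0.0132 and 0.0105), but -0.89 with the slope (adjusted p = 0.316).

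ENSMUSG00000119971, 2506 bases from Nudt7, a peroxisomal coenzyme A hydrolase gene, also fell in female KO livers: 1.87, 1.06 and 1.39 CPM in KO, against 4.82, 6.19 and 8.68 CPM in WT. The groups were well apart (log2 fold change -2.18 ± 0.51, adjusted p = 0.0142), at -0.27 with the slope (adjusted p = 0.834) and -0.94 with the trend removed (adjusted p = 0.0205), and Nudt7 itself averaged 222 ± 49.5 CPM in KO and 523 ± 74.5 CPM in WT (-1.24, adjusted p = 0.0149). ENSMUSG00000121141, 287 bases from Cmip, and ENSMUSG00000120732, 5298 bases from the kinase gene Hipk2, rose beside neighbours that rose. Each lies on the same strand as its neighbour, with start sites 202653 and 187072 bases apart. Whether reads of a longer neighbour transcript enter their counts was not tested. ENSMUSG00000121141 had 27.4, 18.9 and 20.2 CPM in female KO, against 7.42, 6.06 and 7.01 CPM in female WT livers. ENSMUSG00000120732 had 15.3, 17 and 13.4 CPM in KO, against 4.44, 3.95 and 6.18 CPM in WT, with no overlap in either. Their log2 fold changes were 1.70 ± 0.43 and 1.65 ± 0.48 (adjusted p = 0.0151 and 0.0211), against 1.80 for Cmip and 2.05 for Hipk2. With the slope they stood at 0.31 and -0.20 (adjusted p = 0.873 and 0.926), with the trend removed at 2.20 and 2.27 (adjusted p = 0.0159 and 0.0181), and ENSMUSG00000120732 was not called without female WT replicate 1. Not all neighbours moved alike: Gm16573 fell (-1.63) where Parp4, which it overlaps, rose (0.86). Gm32461 and 9030616G12Rik also fell, at -1.75 ± 0.43 and -1.66 ± 0.34 (adjusted p = 0.0145 and 0.0139), and 1700001L05Rik and Gm17753 rose, at 1.17 ± 0.26 and 0.84 ± 0.21 (adjusted p = 0.0140 and 0.0150). With the trend removed 9030616G12Rik stood at -0.55 (adjusted p = 0.0784) and the other 4 (Gm16573, Gm32461, 1700001L05Rik and Gm17753) were still called, and with the slope none of the 5 was. Gm32461 had 9.07, 6.44 and 7.19 CPM in female KO, against 16.9, 28.7 and 31.2 CPM in female WT livers, which were apart, and stood at 0.03 with the length slope as a covariate (adjusted p = 0.989) and at -1.55 with the trend removed (adjusted p = 0.0179). Over 126 members with a tested neighbour the 2 female fold changes had a Pearson correlation of 0.20 across genes, and 65 pairs had the same sign.

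The genes of proteins that bind or process such RNAs were read in the female comparison against the 36.5% of all genes called, 17.7% higher and 18.8% lower. Of 18 paraspeckle protein genes 5 rose and none fell, among them Ewsr1 (70.9 ± 13.9 CPM in KO and 32.4 ± 5.90 CPM in WT) and Smarca4 (50.1 ± 3.95 CPM in KO and 23.1 ± 2.91 CPM in WT). Of 18 speckle and splicing factor genes 5 rose, including Prpf8 and Srrm1, and 1 fell. Of 13 miRNA processing genes 7 rose, Drosha (log2 fold change 1.44 ± 0.35), Dicer1 (1.38 ± 0.37), Ago1 (1.51 ± 0.39) and Tnrc6b (1.72 ± 0.41) among them, and none fell. Of 15 genes of nonsense-mediated decay 8 rose, with Smg6 at 1.76 ± 0.40, and Magoh fell (-1.42 ± 0.31). Of 14 snoRNP core genes 5 fell, Nop56, Nhp2, Nop10 and Snu13 among them, and none rose, and of 16 genes of the nuclear exosome and poly(A) RNA turnover 4 fell and 1 rose. The median log2 fold changes of these lists, in the order given, were 0.51, 0.43, 0.96, 0.78, -0.46 and -0.28, against 0.05 over all genes. The shares called of the paraspeckle, speckle, snoRNP and exosome lists were below 36.5%, and those of the miRNA processing and nonsense-mediated decay lists above it. No gene of the 6 lists was called in males.

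Markers of other liver cells were summed in the same libraries. The sums of the sinusoidal endothelium, Kupffer cell, stellate cell, lymphocyte and neutrophil, and erythroid markers overlapped between the female groups. Of all genes 36.5% were called, 17.7% higher and 18.8% lower. Summed sinusoidal endothelium markers were 250 to 351 CPM in female KO livers, against 214 to 256 CPM in female WT livers, with 4 of 10 called higher, and Kupffer cell markers 223 to 301 CPM in KO, against 177 to 253 CPM in WT, with 3 of 10 called higher. Cholangiocyte markers summed to 25.7 to 37.6 CPM in KO, against 44.7 to 51.6 CPM in WT, with 2 of 7 called higher and 2 lower. Lymphocyte and neutrophil markers summed to 14.6 to 39.5 CPM in KO, against 9.31 to 15.8 CPM in WT, with 2 of 6 tested called higher. Stellate cell markers summed to 255 to 306 CPM in KO and 260 to 299 CPM in WT, with 2 of 10 called higher and 1 lower. Of 5 tested erythroid markers none was called, and they summed to 235 to 597 CPM in KO, against 441 to 1040 CPM in WT. The part of these cells in the member changes was not tested, and in bulk liver fewer cells of a type and less RNA per cell cannot be told apart.

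The male comparison asked the same of males, and no member passed. With edgeR 0 of 138 were called, and 0.0571% of all genes (0.0286% each way). Unadjusted, 15 members had a p under 0.05, against 678 of all 14003 genes. DESeq2 called no member and 34 of all genes (0.243%). The median member was at a log2 fold change of 0.12, against -0.00 over all genes, and 86 of 138 were above 0. All KO libraries lay above all WT libraries for 19 members and below them for 3, 15.9% of members against 9.62% of all genes (5.1% higher and 4.52% lower). Neat1 and Malat1, given above, had the largest positive values of the 138. Meg3 had 16.6, 22.9 and 13.5 CPM in male KO, against 7.26, 4.53 and 9.36 CPM in male WT livers. Its groups did not overlap, and its log2 fold change of 1.32 ± 0.46 had an unadjusted p of 0.0133 and an adjusted p of 0.863. With the library slope as a covariate 1 member was called, and 18 of all genes (0.129%).

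Set side by side, the female and male effects had the same sign for 75 of 138 members. Of the 11 that rose in females 9 were above 0 in males, with a median male log2 fold change of 0.39, and of the 40 that fell 19 were below 0, with a median of 0.03. Members whose KO and WT libraries did not overlap in either sex, the same way in both, numbered 6 (4.35% of members, against 2.89% of all genes), 4 higher and 2 lower (1.36% and 1.52% of all genes): Neat1, Gm45792, ENSMUSG00000121093 and ENSMUSG00000121137 were higher in KO, and ENSMUSG00000120226 and 2310010J17Rik lower. ENSMUSG00000121137 had 20.4, 21.8 and 18.3 CPM in female KO, against 7.56, 12.0 and 14.5 CPM in female WT livers. In males it had 15.2, 16.4 and 19.9 CPM in KO, against 10.5, 13.5 and 6.57 CPM in WT, and its fold change over both sexes was 0.79 ± 0.19 on the log2 scale (adjusted p = 0.0338). In the mean of both sexes 11 members were called higher and 9 lower (20 members, 14.5%, against 15.1% of all genes, 7.78% higher and 7.29% lower), and 14 higher and 2 lower with the length trend removed. Leaving out 1 library moved this count to between 0 (without male WT replicate 1) and 57 (without male KO replicate 2). The other omissions moved it too. It was 7, 1 and 7 without female KO replicates 1, 2 and 3, and 1, 1 and 12 without the female WT replicates. It was 2 and 1 without male KO replicates 1 and 3, and 34 and 3 without male WT replicates 2 and 3. Over all genes 908 were higher and 619 lower with the length trend removed. The count over all genes ran from 32 (without male KO replicate 1) to 5602 (without male KO replicate 2).

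The difference of the knockout effect between males and females was called for 0 of 138 members, and for 0.0% of all genes, by edgeR. Unadjusted, 41 members had a p under 0.05, against 3145 of all 14003 genes. DESeq2 called 6 members, against 83 of all genes (0.593%). The calls in females and their lack in males therefore do not show that the sexes differed.

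**Figure D4:**
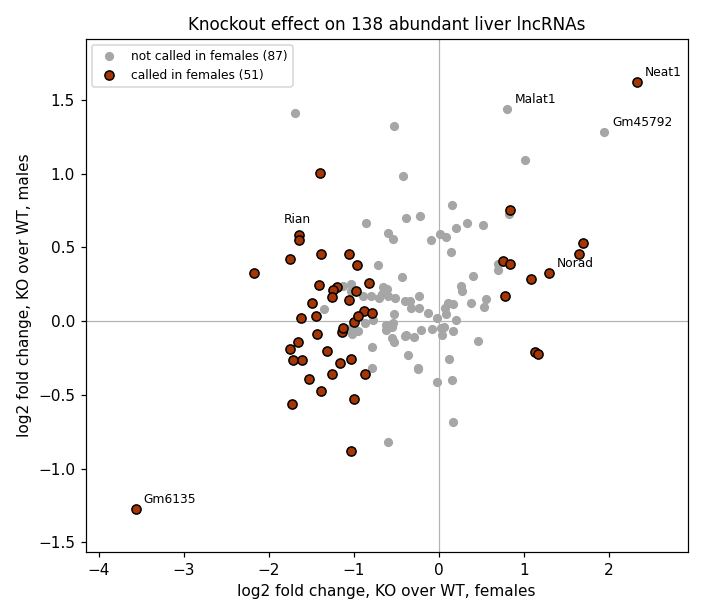
Log2 fold change of KO over WT in males (vertical axis) against that in females (horizontal axis) for the 138 members, with the 51 called in females in dark orange. Neat1 lies at the upper right at 2.33 and 1.62, Gm6135 at the lower left at -3.56 and -1.27, and the called members that fell in females lie on both sides of 0 in males.

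The comparison of male with female livers asked which of these RNAs differ by sex. In KO mice 13 members were higher and 4 lower in males (12.3% of members, against 5.4% of all genes, 2.95% higher and 2.45% lower). In WT mice 6 were higher and 7 lower (9.42%, against 4.49% of all genes, 2.1% higher and 2.39% lower). No member of these lies on a sex chromosome, by the rule. A set of 6 was called in both genotypes, each the same way (4.35% of members, against 2.47% of all genes, 1.23% higher and 1.24% lower): Gm45792, Gm53019, Gm31583 and C4a were higher in males, and Gm6135 and ENSMUSG00000120226 lower. In all, 24 members were called in at least 1 genotype and 21 of them had the same sign in both. The same was not counted over all genes, so it is no result about lncRNAs. Libraries of the sexes did not overlap for 28 members higher and 11 lower in KO males (28.3%, against 28.1% of all genes, 14% higher and 14.2% lower) and for 16 higher and 30 lower in WT males (33.3%, against 26.9% of all genes, 13.4% higher and 13.5% lower). Without male KO replicate 2 the count in WT mice was 22, and with the library slope as a covariate 12 were higher and 12 lower in KO mice and 12 higher and 7 lower in WT mice. With the length trend removed, 12 were higher and 8 lower in WT mice. Over all genes the WT count moved from 629 to 1129 without male KO replicate 2. With the slope 591 of all genes were higher and 523 lower in KO mice, and 361 and 404 in WT mice. With the trend removed 314 were higher and 399 lower in WT mice.

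Gm45792 (ENSMUSG00000108884, chromosome 7, 119225742 to 119230281, inside the span of Acsm1 on the other strand) had by far the highest male bias. It met the level rule through male livers, so its values between the sexes are given as a description. It had 12.6, 18.2 and 14.7 CPM in male KO, against 0.400, 0.278 and 0.257 CPM in female KO livers. Male WT livers had 4.78, 4.25 and 9.67 CPM, against 0.142, 0 and 0.0643 CPM in female WT livers, a total of 3, 0 and 1 counts. The sexes were more than an order of magnitude apart in both genotypes, with log2 fold changes of 5.58 ± 0.44 in KO (adjusted p = 2.8e-06) and 6.24 ± 0.55 in WT mice (adjusted p = 8.77e-06). At these female counts the WT value depends on the count added by the fit, and it was 7.33 without female WT replicate 1. Acsm1, a medium-chain acyl-CoA synthetase gene, showed no such bias, at 503 ± 28.9 CPM in male KO and 395 ± 34.2 CPM in female KO livers, and 480 ± 51.5 CPM in male WT and 457 ± 34.4 CPM in female WT livers (SD, n = 3 each).

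Gm53019 (ENSMUSG00000118631, chromosome 13, 24507695 to 24513023) overlaps Cmah, the sialic acid hydroxylase gene, on the other strand. It too met the level rule through male livers, and its values between the sexes are given as a description. It had 21.3, 30.3 and 22.2 CPM in male KO, against 1.60, 3.89 and 4.18 CPM in female KO livers. Male WT livers had 22.9, 28.2 and 30.1 CPM, against 3.92, 4.66 and 5.40 CPM in female WT livers. No male library came near a female one, and the log2 fold changes were 2.92 ± 0.31 in KO (adjusted p = 6.24e-05) and 2.54 ± 0.31 in WT mice (adjusted p = 0.000179). Cmah itself was not called in KO mice (0.67, adjusted p = 0.187) and was called in WT mice (1.60, adjusted p = 0.00526). Gm31583 (ENSMUSG00000115919, chromosome 16, 23903409 to 23908926), one of the most abundant members, had 173, 227 and 147 CPM in male KO, against 63.8, 61.5 and 56.9 CPM in female KO livers. Male WT livers had 191, 161 and 247 CPM, against 21.4, 54.7 and 57.0 CPM in female WT livers. The sexes did not overlap, with log2 fold changes of 1.58 ± 0.31 in KO and 2.17 ± 0.32 in WT mice (adjusted p = 0.00897 and 0.00102). Its nearest protein-coding gene, 95807 bases away, is Bcl6, a repressor known for its part in the sex-biased liver transcriptome. Bcl6 stood at 5.12 ± 0.179 CPM in KO males and 12.0 ± 7.26 CPM in KO females (log2 -1.23, adjusted p = 0.0989). It stood at 17.5 ± 3.39 CPM in WT males and 3.81 ± 1.49 CPM in WT females (log2 2.21, adjusted p = 0.00610), whereas Gm31583 was higher in males of both genotypes.

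C4a (ENSMUSG00000015451, chromosome 17, 35028069 to 35042440), typed as a lncRNA in the table, is the locus of Slp, the sex-limited protein known as androgen-dependent in mouse liver. It had 56.1, 135 and 82.4 CPM in male KO, against 14.5, 8.70 and 11.2 CPM in female KO livers. Male WT livers had 48.3, 51.9 and 38.0 CPM, against 10.8, 19.4 and 16.0 CPM in female WT livers. The sexes were apart in both genotypes, with log2 fold changes of 2.99 ± 0.33 in KO (adjusted p = 8.73e-05) and 1.58 ± 0.32 in WT mice (adjusted p = 0.0099). The WT call was lost without female WT replicate 1 (1.38). C4b, a near-identical copy with which it can share reads, stood at 1100 ± 318 CPM in male KO and 1600 ± 226 CPM in female KO livers, and 1010 ± 363 CPM in male WT and 757 ± 59.4 CPM in female WT livers, so the level of C4a is uncertain.

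**Figure D5:**
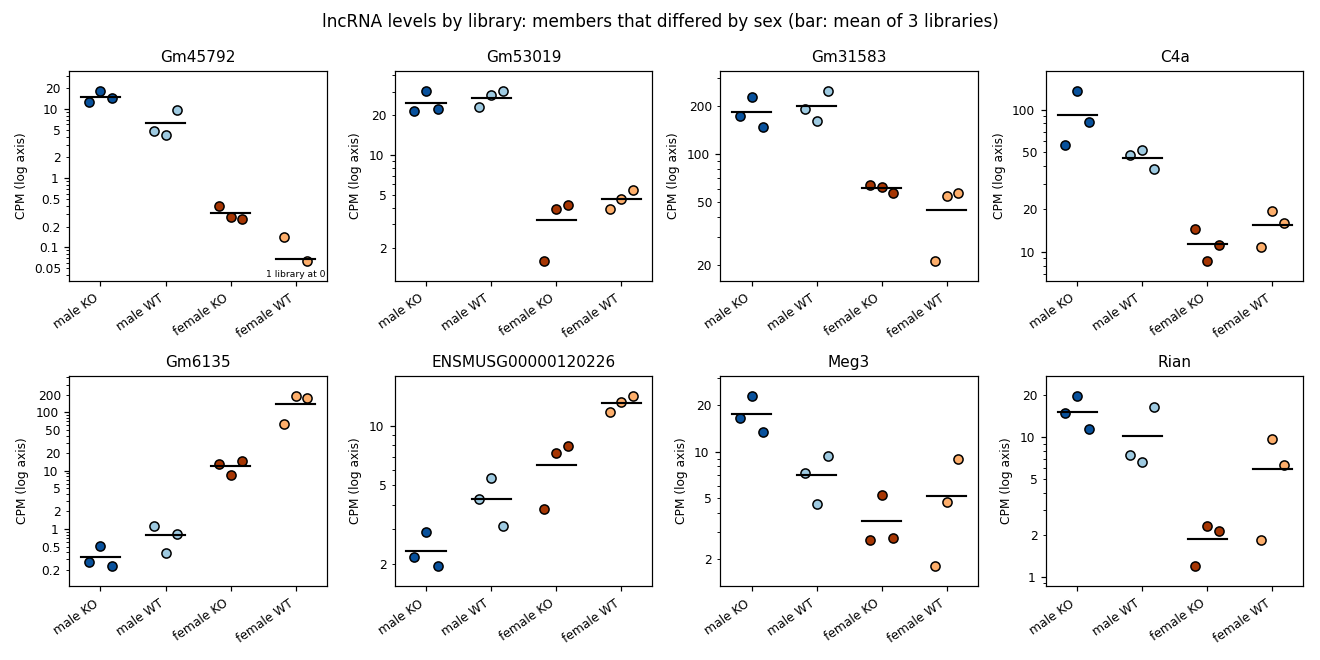
CPM of 8 members that were called between the sexes in at least 1 genotype, in each library (points, log axis) with the mean of 3 libraries (bar), for male KO, male WT, female KO and female WT livers; 1 female WT library of Gm45792, at 0, is marked in words. Gm45792, Gm53019, Gm31583 and C4a were higher in every male than in every female library, Gm6135 and ENSMUSG00000120226 lower within each genotype, and Meg3 and Rian separated the sexes fully in KO livers.

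Of the members lower in males, Gm6135 had 0.270, 0.507 and 0.233 CPM in male KO (5, 7 and 5 counts), against 13, 8.33 and 14.5 CPM in female KO livers. In WT mice it had 1.12, 0.391 and 0.806 CPM in males (24, 7 and 13 counts), against 62.9, 188 and 174 CPM in females. Male livers held few counts of it, with log2 fold changes of -5.19 ± 0.53 in KO (adjusted p = 4.34e-05) and -7.48 ± 0.51 in WT mice (adjusted p = 7.05e-07). It was called in every fit that left out a library, and the WT contrast rests on the female WT level through which it met the level rule. ENSMUSG00000120226 (chromosome 2, 25365312 to 25368413) had 2.16, 2.9 and 1.96 CPM in male KO, against 3.82, 7.27 and 7.92 CPM in female KO livers, and 4.26, 5.42 and 3.1 CPM in male WT, against 11.8, 13.2 and 14.1 CPM in female WT livers. The sexes were apart within each genotype, at -1.45 ± 0.30 in KO and -1.61 ± 0.29 in WT (adjusted p = 0.0123 and 0.00519). ENSMUSG00000120226 met the level rule through female livers, so its values between the sexes are given as a description. The WT value was -1.20 (adjusted p = 0.0710) with the length trend removed, and the KO call was lost without female KO replicate 2 (-1.34) or 3 (-1.25) and without male KO replicate 1 (-1.40). Its neighbour Ptgds, the prostaglandin D synthase gene 5254 bases away, was lower in males as well (-2.59 in KO and -2.01 in WT mice, adjusted p = 0.00533 and 0.0198).

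Gm44787 (ENSMUSG00000108822) had 2.21, 3.84 and 2.33 CPM in male KO, against 8.98, 4.12 and 6.27 CPM in female KO livers (log2 fold change -1.22 ± 0.39, adjusted p = 0.0915). In WT mice it had 0.984, 1.62 and 1.55 CPM in males, against 8.98, 23.1 and 19.4 CPM in females, a log2 fold change of -3.63 ± 0.42 (adjusted p = 0.000122). The sexes did not overlap in either genotype, and Gm44787 met the level rule through female livers. Gm27216, Gm44992, Gm49668 and ENSMUSG00000120149 were lower in WT males at log2 values of -1.43, -1.82, -1.29 and -1.95, and none of these 4 was called in KO mice. The WT calls of Gm44992 (without female WT replicates 2 or 3 or male WT replicates 1 or 2), Gm49668 (without female WT replicate 2 or male WT replicate 2) and ENSMUSG00000120149 (without female WT replicate 3 or male WT replicate 1) each depended on single libraries. ENSMUSG00000120149 reached 5 CPM in female WT livers alone (13.9 CPM, against 3.58 to 4.83 CPM in the other groups), so its WT contrast rests on the group that brought it in, and with the slope as a covariate it was not called (-1.60, adjusted p = 0.0549).

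The imprinted RNAs Meg3 (ENSMUSG00000021268, chromosome 12, 109506879 to 109538165) and Rian (ENSMUSG00000097451, chromosome 12, 109570242 to 109628150) are expressed from the maternal allele of one cluster. Meg3 had 16.6, 22.9 and 13.5 CPM in male KO, against 2.67, 5.19 and 2.75 CPM in female KO livers. Rian had 14.9, 19.7 and 11.4 CPM in male KO, against 1.20, 2.32 and 2.13 CPM in female KO livers. Neither overlapped between the sexes, with log2 fold changes of 2.32 ± 0.48 (adjusted p = 0.0114) and 3.02 ± 0.53 (adjusted p = 0.00438), and the Meg3 call was lost without female KO replicate 1 (2.16) or 3 (2.16). Meg3 and Rian met the level rule through male livers, most of all male KO, so these values between the sexes are given as a description. In WT mice Meg3 had 7.26, 4.53 and 9.36 CPM in males, against 1.80, 4.66 and 9.01 CPM in females. Rian had 7.49, 6.71 and 16.5 CPM in WT males, against 1.84, 9.76 and 6.30 CPM in WT females, so that both overlapped and neither was called (adjusted p = 0.563 and 0.352). Between the genotypes Rian was lower in female KO than in female WT livers (-1.65 ± 0.53, adjusted p = 0.0291), a call lost when any of the 3 female KO libraries or female WT replicate 2 or 3 was left out, and Meg3 was not called (-0.53 ± 0.48, adjusted p = 0.389).

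Further members were called between the sexes in KO mice and not in WT mice. ENSMUSG00000119971 had 15.9, 51.7 and 15.3 CPM in male KO, against 1.87, 1.06 and 1.39 CPM in female KO livers (log2 4.25 ± 0.53, adjusted p = 0.000244), and 3.43 without male KO replicate 2, its highest library. In WT mice it had 18.7, 13.9 and 33.1 CPM in males, against 4.82, 6.19 and 8.68 CPM in females, which did not overlap either (log2 1.74 ± 0.47, adjusted p = 0.0533). Its neighbour Nudt7 was higher in males as well, at 1260 ± 575 CPM in male KO and 222 ± 49.5 CPM in female KO livers (log2 2.5, adjusted p = 0.000363). ENSMUSG00000120841 (chromosome 12, 104044204 to 104045428) had 22.0, 54.5 and 37.1 CPM in male KO, against 1.91, 2.96 and 1.39 CPM in female KO livers (log2 4.18 ± 0.70, adjusted p = 0.00293). Both were far apart between the sexes in KO, while in WT mice ENSMUSG00000120841 overlapped, at 11.2, 25.9 and 5.39 CPM in males and 2.93, 3.32 and 14.2 CPM in females. ENSMUSG00000119971 and ENSMUSG00000120841 met the level rule through male livers, and their values between the sexes are given as a description. ENSMUSG00000121093 and Gm26588 were lower in KO males (log2 -1.09 and -1.10). In WT mice ENSMUSG00000121093 stood at -0.74 (adjusted p = 0.108) with no overlap, and Gm26588 at -0.73 (adjusted p = 0.119). 4931408D14Rik and AI463229 were called higher in WT males (1.00 and 1.03) and not called in KO mice, where they stood at -0.35 (adjusted p = 0.308) and 0.77 (adjusted p = 0.0634), the sexes of AI463229 without overlap at 13.9, 18.9 and 13.1 CPM in males, against 11.3, 8.38 and 7.08 CPM in females. The calls of ENSMUSG00000121093 and Gm26588 were lost without female KO replicate 1 or male KO replicate 1, that of Gm26588 also without female KO replicate 3, and those of 4931408D14Rik and AI463229 without female WT replicate 1, the AI463229 call also without female WT replicate 2 or male WT replicate 1.

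By edgeR 64 members (46.4%, against 41.3% of all genes) were called in at least 1 of the 6 contrasts and 74 in none. The flattest by group mean were Gm10762 and ENSMUSG00000121095, whose highest group was 1.13 times the lowest, and the widest were Gm6135 (418 times) and Gm45792, whose lowest group rests on 3, 0 and 1 counts, while the median member spanned 2.04-fold. Female WT livers held the highest group mean for 68 members, male KO for 32, female KO for 25 and male WT for 13. Between the sexes, members and their nearest protein-coding genes had the same sign in 68 of 126 pairs in KO mice and in 78 of 126 pairs in WT mice (Pearson 0.37 across genes in each).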

How the data were processed

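Liver poly(A) RNA of 12 mice was sequenced, 3 per sex and genotype, and the authors deposited raw counts per gene with mm39 positions, lengths and biotypes. HISAT2 2.0.5, DESeq2 and the build mm39 appear, with no role, in the submitters' processing notes. The counting program and its strand setting were not given in these sources. Columns were matched to samples by the library number in the labels, and 0 columns were left unmapped. From the deposited counts, edgeR 4.0.16 (R 4.3.3) with filterByExpr (14003 of 56748 genes, 99.9% of counts), TMM, 1 mean per group over 12 libraries (8 residual degrees of freedom, BCV 25.9%) and the quasi-likelihood F test gave 6 contrasts, adjusted by Benjamini-Hochberg over all genes and called under 0.05. A standard error is the fold change (log2) divided by the root of its F value. Levels in the text are CPM on library sizes after TMM, whereas the 5 CPM rule and the Cyp2e1 level use unscaled column totals. Replicates are separate animals only as far as the labels call them biological. The fit was tested on simulated data. Alternatives used DESeq2 1.42.0 (size factors and Wald test), no filter, only the groups compared, a replicate block, gene length, other level minima and leaving out each library.

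Members, lists and tests were chosen with earlier results of these data known. Named members are those on the lncRNA lists, the 12 of highest CPM per kb, up to 8 called each way per contrast and those at the threshold; a few others were named after their values were seen. Of the listed protein genes, up to 4 called per list are named. Sequences come from RefSeq (GRCm38.p6), whose coordinates are not those of mm39.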

Additional observations from a re-analysis of the deposited data

How the results depend on the processing

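The counts of members called depended most on the correction for gene length and on single libraries. In females the count was 51 in the reported fit; it was 33 with a replicate block, 0 with the library length slope as a covariate, 82 of 287 with a minimum of 2 CPM, 26 of 67 with a minimum of 10 CPM, and 1 to 66 when 1 library was left out. The female count over all 14003 genes moved from 5116 to 3365 with the block, 10 with the slope and 4 to 6023 over single omissions. In males the count of members, against 0, was 7 with no filter on low counts (101 of 25594 genes) and 1 with the length slope (18 of 14003 genes). For the mean of both sexes, against 20, it was 40 with no filter, 1 with the replicate block and 1 with the slope. It was 35 with DESeq2's Wald test, 35 with a minimum of 2 CPM, and 0 to 57 over single omissions. Over all genes the count was 2111, and it was 3900 of 25594 with no filter, 23 with the block, 21 with the slope and 3959 with DESeq2's Wald test. For the difference of effects, against 0, the count of members was 36 with no filter (1451 of 25594 genes) and 6 with DESeq2 (83 of 14003 genes). Between the sexes in WT mice, against 13, it was 45 with no filter, 20 with the length trend removed and 24 with DESeq2. It was 25 at 2 CPM, 7 at 10 CPM and 10 to 22 over single omissions. In KO mice, against 17, it was 32 with no filter, 31 with DESeq2, 37 at 2 CPM, 10 at 10 CPM and 12 to 21 over single omissions. Over all genes the WT count moved from 629 to 1700 of 25594 with no filter, 713 with the trend removed, 1226 with DESeq2 and 380 to 1129 over single omissions. The KO count over all genes moved from 756 to 1694 of 25594 with no filter, 1395 with DESeq2 and 441 to 948 over single omissions. The replicate block gave 10 and 15 members between the sexes (415 and 507 of all genes) and changed no member call in males. Deviations of same-numbered libraries had correlations of -0.80 to 0.45 over 18 pairs, with no common sign. They were taken from means of 3 libraries, so they cannot exclude a pairing by number. Of the calls in females 32 were shared with the block, 28 with the trend removed and 1 was made in every omission; of 13 and 17 sex calls 7 and 9 were made in every omission, and 12 and 16 with the slope. With the slope the female log2 fold change turned for 21 of the 51 members called, among the named ones to 0.25 for Hnf4aos, 0.28 for Snhg8, 0.39 for Zfas1, 0.048 for ENSMUSG00000120904, -0.20 for ENSMUSG00000120732, 0.033 for Gm32461 and 0.85 for 2410006H16Rik, and the mean over both sexes to -0.055 for ENSMUSG00000120732 and 0.005 for Gm32461. With the trend removed it turned for 2 of the 51, to 0.039 for Gm14097 and 0.63 for ENSMUSG00000120904. The cause was not tested. Where an omission leaves a group with 2 libraries the fit pools the spread over groups. Replicate pairs differed by 16.2 to 150 times counting noise (chi-square per degree of freedom), so the spread between libraries exceeded what depth alone gives.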
